A study of Mus musculus with 10 samples.

Results

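Replacement histone variant genes, 10 in number, were followed across 5 mouse embryonic stem cell (mESC) lines: *H2afx*, *H2afz*, *H2afv*, *H2afj*, *H2afy*, *H2afy2*, *Cenpa*, *H1f0*, *H1fx* and *H1foo*. They were chosen by symbol, as the variants of histone H2A, the centromeric H3 variant and the linker histone variants that lie outside the replication-dependent clusters, and all 10 were among the 20325 genes measured. PolyA RNA was sequenced from DaxxKO cells (*Daxx* -/-, strain 129/SvEv), from the same cells rescued with a wild-type DAXX transgene (DaxxWT in the labels), from cells without the H3.3 genes (H3.3 KO, 129 x C57BL/6J), and from H3.3 KO cells rescued with wild-type H3.3 (H3.3 WT) or with H3.3 carrying the L126A-L130A substitutions (H3.3 L126A-L130A), with 2 replicates of each line. DAXX is a chaperone that deposits H3.3, and the substitutions lie, by the study's account, outside the contact with DAXX. The study's text names the second of them as isoleucine where the sample labels have leucine.

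All lines were grown without feeder cells in 2i medium with LIF, that is with inhibitors of GSK3 (CHIR99021) and MEK (PD0325901). The transgenes were FLAG-tagged (DAXX) or FLAG-HA-tagged (H3.3), were delivered by lentivirus under an EF1 promoter and were selected with puromycin, and the cells were collected as selected populations. The KO lines did not receive a transgene by their labels, and no unmodified wild-type line was among the libraries. The Daxx and H3.3 parent lines differ in strain and origin as well as in genotype, so genotype and parent line cannot be told apart in any comparison between them.

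The core histones packaged onto newly replicated DNA come from clustered genes that are transcribed in S phase. Replacement variants come from separate genes, many of them also transcribed outside S phase, and several are exchanged into chromatin by their own chaperones. Most replacement variant mRNAs are polyadenylated and so are seen in polyA libraries, while *H2afx* also makes a transcript with a stem-loop end and no polyA tail, which such libraries miss. H2A.Z marks promoters and enhancers, H2A.X is phosphorylated around DNA breaks, macroH2A is found on the inactive X chromosome and on silenced loci, CENP-A defines the centromere, and linker histones bind the DNA between nucleosomes.

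The carboxy-terminal ends set several of these variants apart, and the end of the coding sequence is shown here for the H2A variants that the results turn on (GENCODE transcripts of GRCm38, each the last 60 bases, 5′ to 3′, with the last 4 codons before the stop codon in capitals). In *H2afx* these codons begin with that of the serine that the kinases ATM, ATR and DNA-PK phosphorylate, and *H2afj* ends otherwise.
H2afx: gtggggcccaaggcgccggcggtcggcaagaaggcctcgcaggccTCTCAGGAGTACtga
H2afj: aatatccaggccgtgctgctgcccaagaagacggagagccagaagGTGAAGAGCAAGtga
The H2A.Z genes are a pair with ends that differ little from each other. Compared position by position, without gaps, their coding sequences of 387 bases differed at 81 bases and were 79.1% identical.
H2afz: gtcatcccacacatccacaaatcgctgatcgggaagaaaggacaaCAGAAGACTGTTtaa
H2afv: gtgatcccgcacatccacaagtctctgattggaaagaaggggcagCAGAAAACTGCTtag

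Promoter windows of 300 bases were found in RefSeq (GRCm38.p6) for 9 of the 10 genes, all but *H2afx*. Those of *H2afj* and *H1f0* are shown because these genes differed most between the H3.3 KO and DaxxKO lines, in opposite directions. The capitals mark CCAAT on either strand (printed as ATTGG where it lies on the other strand). The *H2afj* window, chr6:136807998-136808297 on the plus strand, held 3 of them, and the *H1f0* window, chr15:79027962-79028261 on the plus strand, held 0.
H2afj: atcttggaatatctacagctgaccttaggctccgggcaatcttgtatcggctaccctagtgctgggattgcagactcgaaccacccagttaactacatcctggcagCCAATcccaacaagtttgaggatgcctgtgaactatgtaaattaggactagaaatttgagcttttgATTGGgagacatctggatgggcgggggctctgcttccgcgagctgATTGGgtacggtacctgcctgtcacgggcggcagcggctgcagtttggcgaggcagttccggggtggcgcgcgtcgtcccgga
H1f0: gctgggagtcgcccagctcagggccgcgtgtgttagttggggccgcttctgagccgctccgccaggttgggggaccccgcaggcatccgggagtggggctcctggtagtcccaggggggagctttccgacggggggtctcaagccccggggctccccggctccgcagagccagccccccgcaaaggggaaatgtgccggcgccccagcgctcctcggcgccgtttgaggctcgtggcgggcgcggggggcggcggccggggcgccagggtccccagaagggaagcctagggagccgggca
CCAAT was present in 6 of the 9 windows and in 37.4% of 32851 RefSeq promoter windows of the same length. GGGCGG, searched on both strands, was present in 7 of 9 and in 35.7% of all windows. The GC content of the windows shown was 55.3% for *H2afj* and 75.0% for *H1f0*, against a median of 52.7% over all windows. These matches describe the letters in the windows. The windows shown are placed differently against the GENCODE gene starts: that of *H2afj* includes the start at chr6:136808244, while that of *H1f0* ends before the start at chr15:79028450. Their CCAAT counts are thus not from like positions.

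Each library held from 15463625 to 21396585 expected counts in total, with more than counting noise between the replicates of every line. Values are given as scaled CPM, which are counts relative to library size after median-of-ratios scaling. *H3f3a*, one of the H3.3 genes, had 381 to 494 CPM in the 4 Daxx libraries and 2.84 to 10.9 CPM in the 6 H3.3 libraries. *H3f3b*, the other H3.3 gene, averaged 614 CPM in H3.3 KO, the highest of the lines, 355 in H3.3 L126A-L130A, 347 in DaxxKO, 171 in H3.3 WT and 100.2 in DaxxWT. It fell 3.58-fold with wild-type H3.3 against H3.3 KO (adjusted p = 0.0311) and 3.46-fold with DAXX against DaxxKO (adjusted p = 0.0244, edgeR). *Daxx* averaged 77.7 CPM in DaxxKO and 206 in DaxxWT, but 61.7 in H3.3 KO, 60.8 in H3.3 WT and 84.1 in H3.3 L126A-L130A, lines in which the gene is intact by the labels. The level of *H3f3b* thus goes against the H3.3 KO label and that of *Daxx* does not set the line labelled DaxxKO below the H3.3 lines. The reads assigned to *H3f3b* and *Daxx* do not check the knockouts, while the low *H3f3a* level in the H3.3 lines goes with their label. The lines are named as labelled in every comparison here. The 7 of 8 listed embryonic stem cell markers that were measured summed to between 5293 and 7198 CPM in every library, with *Klf4* higher in H3.3 lines by 1.16 on the log2 scale (adjusted p = 6.4e-05).

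Per kilobase of exon, *H2afz* was the most abundant of the 10 genes in every library, and *H1foo* was at the limit of detection. The *H2afz* level lay between 382 and 775 CPM per kilobase and made up 50.0% to 75.9% of the sum over the 10 genes. *H2afx* followed with a median of 159 CPM per kilobase, and *H2afv* with 61.1. The other 6 detected genes had medians between 17.1 (*H2afy2*) and 28.6 (*H2afy*) CPM per kilobase, and their ranges over the libraries overlapped. *H2afy* nevertheless lay above *H2afy2* in 10 of 10 libraries, and no other pair of the 6 kept 1 order in all libraries on this scale. These levels depend on the transcript assumed: with the longest transcript in place of the union of exons, the *H2afz* median was 947 instead of 570 CPM per kilobase. Of 50-base windows in the *H2afz* transcripts, 35.4% also occur in transcripts of other genes, so part of its count depends on how shared reads were divided.

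**Figure D1:**
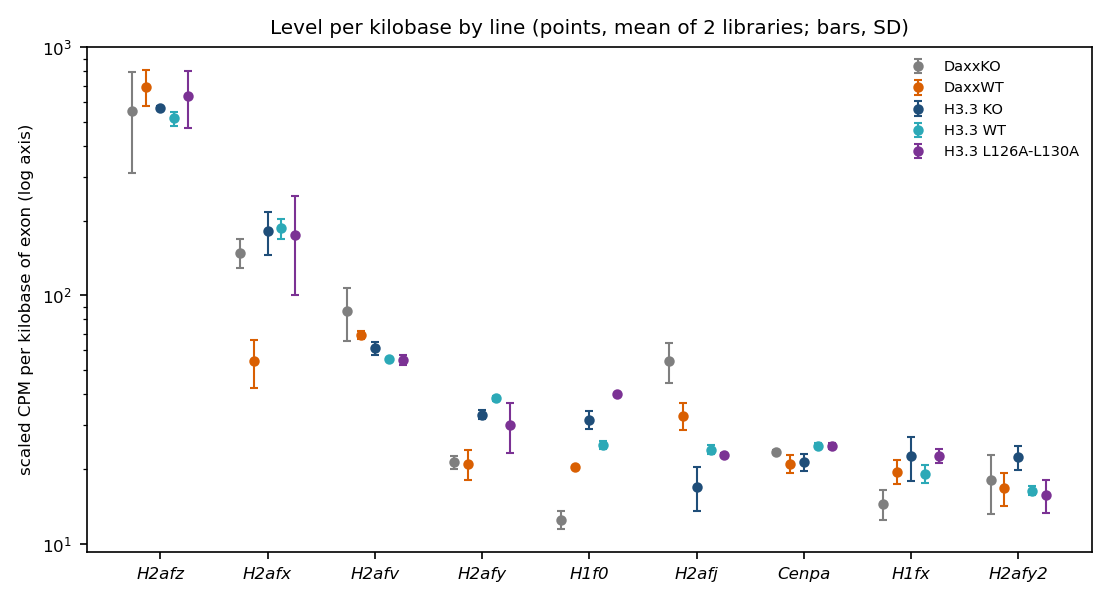
Level per kilobase of exon, in scaled CPM on a log axis, of the 9 detected variant histone genes in the 5 lines (points, mean of 2 libraries; bars, SD). *H2afz* lies above the other genes in each line, and *H2afx* falls below *H2afv* in DaxxWT.

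With DAXX added back to DaxxKO cells, the linker histone gene *H1f0* rose 1.64-fold, while *H2afx* (2.74-fold lower) and *H2afj* (1.66-fold lower) had lower values that did not pass the test. Of the 9 genes tested, 1 passed (adjusted p under 0.05, edgeR quasi-likelihood test with Benjamini-Hochberg adjustment over 13201 genes), where 1.41% of all genes passed. None was differentially expressed (DE), that is past that threshold with at least a 2-fold change, as were 1.08% of all genes, and 3 of 9 had an unadjusted p under 0.05 against 21.8% of all genes. In 6 of the 9 genes the 2 rescued libraries lay entirely on one side of the 2 KO libraries, 4 lower and 2 higher, where 46.5% of all genes did. *H1foo* was not tested.

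Adding wild-type H3.3 back to H3.3 KO cells changed none of the 9 genes past the threshold, where 0.250% of all genes passed and 0.250% were DE, and 2 of 9 had an unadjusted p under 0.05 against 13.3% of all genes. The libraries did not overlap in 7 of 9 genes, against 56.0% of all genes. With the L126A-L130A mutant in place of wild-type H3.3, none of the 9 passed against the H3.3 KO line, where 0.962% of all genes passed and 0.788% were DE, and 2 of 9 had an unadjusted p under 0.05 against 16.9%. The libraries did not overlap in 5 of 9 genes, against 50.1% of all genes. Both of these comparisons share the H3.3 KO libraries.

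Between the H3.3 lines rescued with mutant and with wild-type H3.3, none of the 9 genes passed, where 0.530% of all genes passed and 0.515% were DE, and 1 of 9 had an unadjusted p under 0.05 against 12.3%. The libraries did not overlap in 4 of 9 genes, against 45.3% of all genes. The 3 two-cell-like genes measured summed to 1.62 to 25.5 CPM in H3.3 L126A-L130A against 102 to 134 in H3.3 KO and 95.2 to 135 in H3.3 WT, beside 9.59 to 38.7 in DaxxKO and 5.44 to 53.0 in DaxxWT. Their median log2 fold change in the mutant line was -3.13 against H3.3 KO and -3.08 against H3.3 WT, with none past the threshold, and their part in the variant histone values of the mutant was not tested. The median absolute log2 fold change of the 9 genes in the comparison of mutant with wild-type H3.3 was 0.08, against 0.22 over all genes tested. It was 0.16 against 0.27 for the mutant against H3.3 KO, 0.22 against 0.24 for wild-type H3.3 against H3.3 KO, and 0.33 against 0.33 for DAXX against DaxxKO.

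**Figure D2:**
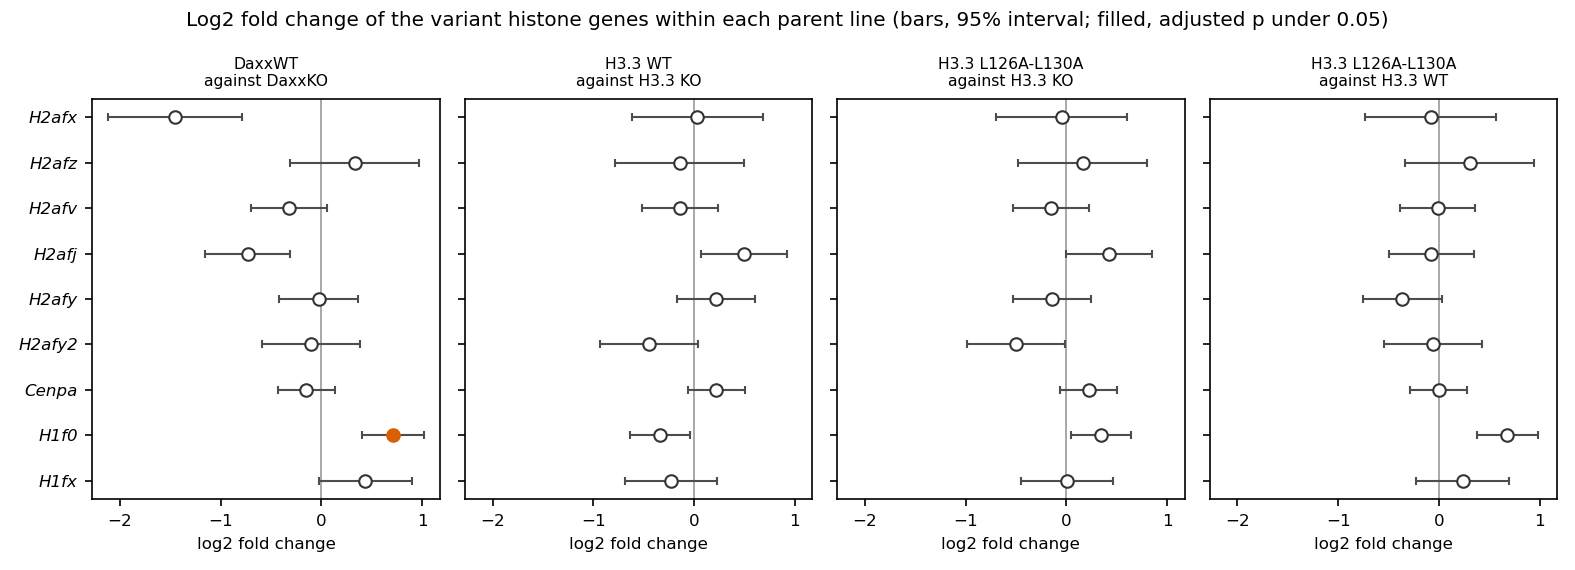
Log2 fold change (x axis) of the 9 tested genes in the 4 comparisons within a parent line, with 95% intervals as bars and filled points at an adjusted p under 0.05. Only *H1f0* in DaxxWT against DaxxKO is filled, and the *H2afx* interval in that comparison, from -2.12 to -0.79, lies farthest from 0.

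*H2afx* encodes H2A.X, the variant whose phosphorylated form marks DNA breaks, from a gene of 1 exon at chr9:44334694-44336077 on the plus strand (GRCm38). It was counted at 225 and 187 CPM in DaxxKO, 63.4 and 86.8 in DaxxWT, 217 and 287 in H3.3 KO, 241 and 275 in H3.3 WT, and 169 and 317 in H3.3 L126A-L130A. Both DaxxWT libraries lay below the other 8, and the 2 mutant libraries lay farther apart than those of any other line. The level in DaxxWT was 2.74-fold lower than in DaxxKO, a log2 fold change of -1.45 ± 0.29 (SE, 95% interval -2.12 to -0.79), with an adjusted p of 0.0505 that missed the threshold. It passed in 6 of the 9 alternative settings that left out no single library. Those 6 also called more of all genes as DE, 1.33% to 4.70%, against 1.08% in the main fit. Passing also depended on which library was left out, with the log2 fold change between -1.70 and -1.24. Neither H3.3 rescue moved it measurably (0.03 ± 0.29 with wild-type H3.3 and -0.05 ± 0.29 with the mutant, log2 fold changes with SE), and these intervals reach 0.68 and 0.60 upwards and -0.61 and -0.70 downwards.

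The difference between the DAXX rescue and the wild-type H3.3 rescue, a contrast chosen after the values were seen, was -1.49 ± 0.41 on the log2 scale for *H2afx* and did not pass (adjusted p = 0.219), as 0.0455% of all genes did. With DESeq2, which called 1.98% of all genes with at least a 2-fold difference here, its adjusted p was 0.0225. Over the 18 alternatives its adjusted p lay between 0.0225 and 0.710. Of the *H2afx* exon bases, 10.2% overlap a predicted miRNA gene on the opposite strand, and the strand of the reads is not given in the sources used here.

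*H2afx* had the widest ratio of line means among the tested variants, 3.43 between H3.3 WT and DaxxWT. The 5 genes whose log2(CPM + 1) followed it most closely over the 10 libraries were *Sh3gl3* (Pearson r = 0.977), *Fam126b* (0.973), *Gars* (0.957), *Efha2* (0.951) and *Erp44* (0.949). Each of them had its lowest line mean in DaxxWT as well: *Gars*, the glycyl-tRNA synthetase, averaged 376 CPM there and between 555 and 648 CPM in the other lines. These values are a description, since the libraries share lines and scaling factors and the 5 were the closest among 13201 genes.

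*H2afj* encodes H2A.J, an H2A variant known to accumulate in senescent cells, at chr6:136808244-136810074 on the plus strand. Its counts were 86.5 and 113 CPM in DaxxKO, 65.2 and 54.8 in DaxxWT, 35.3 and 26.6 in H3.3 KO, 45.0 and 42.6 in H3.3 WT, and 42.1 and 41.0 in H3.3 L126A-L130A. The libraries fell in the order DaxxKO, DaxxWT, the rescued H3.3 lines and H3.3 KO, and the 4 libraries of rescued H3.3 lines lay within 5 CPM of each other. Rescue with DAXX gave a log2 fold change of -0.73 ± 0.19 (adjusted p = 0.0800), and rescue with wild-type H3.3 gave 0.50 ± 0.19 (adjusted p = 0.298). The mutant gave 0.43 ± 0.19 against the KO line (adjusted p = 0.296) and -0.07 ± 0.19 against wild-type H3.3, with an interval from -0.50 to 0.35. The ratio of *H2afx* to *H2afj* counts, which needs no scaling between libraries, lay between 0.972 and 2.60 in the Daxx lines and between 4.02 and 10.8 in the H3.3 lines.

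The H2A.Z genes *H2afz* (chr3:137864487-137866922, plus strand) and *H2afv* (chr11:6427229-6444443, minus strand) did not pass the test in any rescue. *H2afz* was at 1281 and 678 CPM in DaxxKO, 1377 and 1085 in DaxxWT, 997 and 1027 in H3.3 KO, 959 and 875 in H3.3 WT, and 1340 and 924 in H3.3 L126A-L130A. Its replicates differed so much in DaxxKO, where the SD was 43.5% of the mean, that the interval for DAXX rescue spans -0.31 to 0.97 on the log2 scale. *H2afv* was steadier, at 117 and 166 CPM in DaxxKO, 110 and 116 in DaxxWT, 95.6 and 104 in H3.3 KO, 90.2 and 91.1 in H3.3 WT, and 86.8 and 92.8 in H3.3 L126A-L130A. Its log2 fold change was -0.32 ± 0.17 with DAXX (adjusted p = 0.291), -0.14 ± 0.17 with wild-type H3.3 and -0.15 ± 0.17 with the mutant.

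The ratio of *H2afz* to *H2afv* counts ranged from 4.09 in DaxxKO replicate 2 to 15.4 in H3.3 L126A-L130A replicate 1, and the other 8 libraries lay between 9.37 and 12.5. DaxxKO replicate 2 thus had both the lowest *H2afz* and the highest *H2afv* level of the 10 libraries.

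Of the macroH2A genes, which encode H2A variants with a large macro domain, *H2afy* (macroH2A1, chr13:56073619-56136361, minus strand) was the more abundant in every library and *H2afy2* (macroH2A2, chr10:61738665-61784147, minus strand) the less. *H2afy* was at 151 and 138 CPM in DaxxKO, 128 and 156 in DaxxWT, 219 and 232 in H3.3 KO, 258 and 267 in H3.3 WT, and 171 and 237 in H3.3 L126A-L130A. The Daxx lines overlapped each other and lay below all H3.3 libraries. DAXX rescue gave -0.03 ± 0.17 on the log2 scale, wild-type H3.3 rescue 0.22 ± 0.17, and the mutant -0.36 ± 0.17 against wild-type H3.3 (adjusted p = 0.450).

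*H2afy2* was at 46.4 and 31.7 CPM in DaxxKO, 32.5 and 40.4 in DaxxWT, 52.1 and 44.6 in H3.3 KO, 36.6 and 34.5 in H3.3 WT, and 30.4 and 37.8 in H3.3 L126A-L130A. Both H3.3 KO libraries lay above the 4 rescued H3.3 libraries, with log2 fold changes of -0.44 ± 0.22 with wild-type H3.3 (adjusted p = 0.424) and -0.50 ± 0.22 with the mutant (adjusted p = 0.281), neither of which passed. The ratio of *H2afy* to *H2afy2* counts lay between 3.26 and 5.20 in the KO lines and DaxxWT and between 5.63 and 7.73 in the rescued H3.3 lines. Of the *H2afy2* exon bases, 10.7% overlap *Aifm2* on the opposite strand.

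*Cenpa* encodes CENP-A, the centromeric H3 variant (chr5:30666777-30674830, plus strand), and was the steadiest of the tested genes, with line means within a ratio of 1.18. It was at 138 and 135 CPM in DaxxKO, 130 and 115 in DaxxWT, 118 and 131 in H3.3 KO, 148 and 143 in H3.3 WT, and 148 and 142 in H3.3 L126A-L130A. Its log2 fold changes were -0.15 ± 0.12 with DAXX (interval -0.43 to 0.13), 0.22 ± 0.12 with wild-type H3.3 (-0.06 to 0.50) and 0.22 ± 0.12 with the mutant (-0.06 to 0.50). Mutant and wild-type H3.3 differed by 0.00 ± 0.12 (-0.29 to 0.28).

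*H1f0* encodes H1.0, the linker histone that accumulates in differentiated and non-dividing cells, from a gene of 1 exon at chr15:79028450-79030504 on the plus strand. Its counts were 24.1 and 27.1 CPM in DaxxKO, 41.6 and 42.2 in DaxxWT, 61.0 and 68.5 in H3.3 KO, 52.6 and 49.9 in H3.3 WT, and 81.4 and 82.7 in H3.3 L126A-L130A. The 5 lines did not overlap each other. DAXX rescue raised it 1.64-fold, a log2 fold change of 0.71 ± 0.13 (95% interval 0.41 to 1.02, adjusted p = 0.0456). This call was lost when any 1 of the 10 libraries other than DaxxKO replicate 1 was left out. It was also lost with a fit of the 2 Daxx lines alone (adjusted p = 0.287) or scaling by library size alone (0.0543). The log2 fold change stayed between 0.63 and 0.79 under all 19 alternatives.

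Wild-type H3.3 gave a log2 fold change of -0.34 ± 0.13 for *H1f0* (adjusted p = 0.318), and the mutant gave 0.34 ± 0.13 (adjusted p = 0.235), both against H3.3 KO. Mutant against wild-type H3.3 was 1.60-fold higher, 0.68 ± 0.13 on the log2 scale (interval 0.38 to 0.98), and missed the threshold (adjusted p = 0.0745). It passed in 2 of the 9 alternatives that left out no single library. Those 2 called 2.45% and 1.77% of all genes as DE, against 0.515% in the main fit. Passing also depended on which library was left out. The DAXX and wild-type H3.3 rescues differed by 1.05 ± 0.19 (adjusted p = 0.121). Fibroblast markers summed to 27.5 to 40.9 CPM in DaxxKO and 12.4 to 17.2 CPM in DaxxWT, with *Thy1* at -1.10 ± 0.39 (adjusted p = 0.158), and their part in the DAXX rescue result was not tested. Of the *H1f0* exon bases, 7.93% overlap an antisense gene.

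*H1fx*, which encodes the linker histone H1X (chr6:87980421-87981637, minus strand), was at 19.3 and 15.8 CPM in DaxxKO, 25.6 and 21.9 in DaxxWT, 23.4 and 31.2 in H3.3 KO, 24.7 and 21.9 in H3.3 WT, and 28.7 and 26.1 in H3.3 L126A-L130A. Its log2 fold change was 0.44 ± 0.20 with DAXX, -0.23 ± 0.20 with wild-type H3.3 and 0.01 ± 0.20 with the mutant. Mutant against wild-type H3.3 gave 0.24 ± 0.20. None of these 4 comparisons within a parent line passed (adjusted p between 0.250 and 0.996). The signs were those of *H1f0*, but the value for the mutant against H3.3 KO was far smaller than its SE. The sign for mutant against wild-type H3.3 follows from the values of both rescues against H3.3 KO. How many other genes shared the signs of *H1f0* was not counted. Of the *H1fx* exon bases, 17.5% overlap an antisense gene.

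*H1foo*, the oocyte linker histone (chr6:115944938-115950236, plus strand), had 2 counts in DaxxKO replicate 2 and 0 in the other 9 libraries. A count of 0 allows up to 3 counts, which is 0.149 to 0.202 CPM in these libraries. The oocyte markers gave a like picture, with 6 of the 7 listed under 1 CPM in the mean over all libraries. *Oosp1* was at 0 throughout, and the sum lay between 3.55 and 13.3 CPM.

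**Figure D3:**
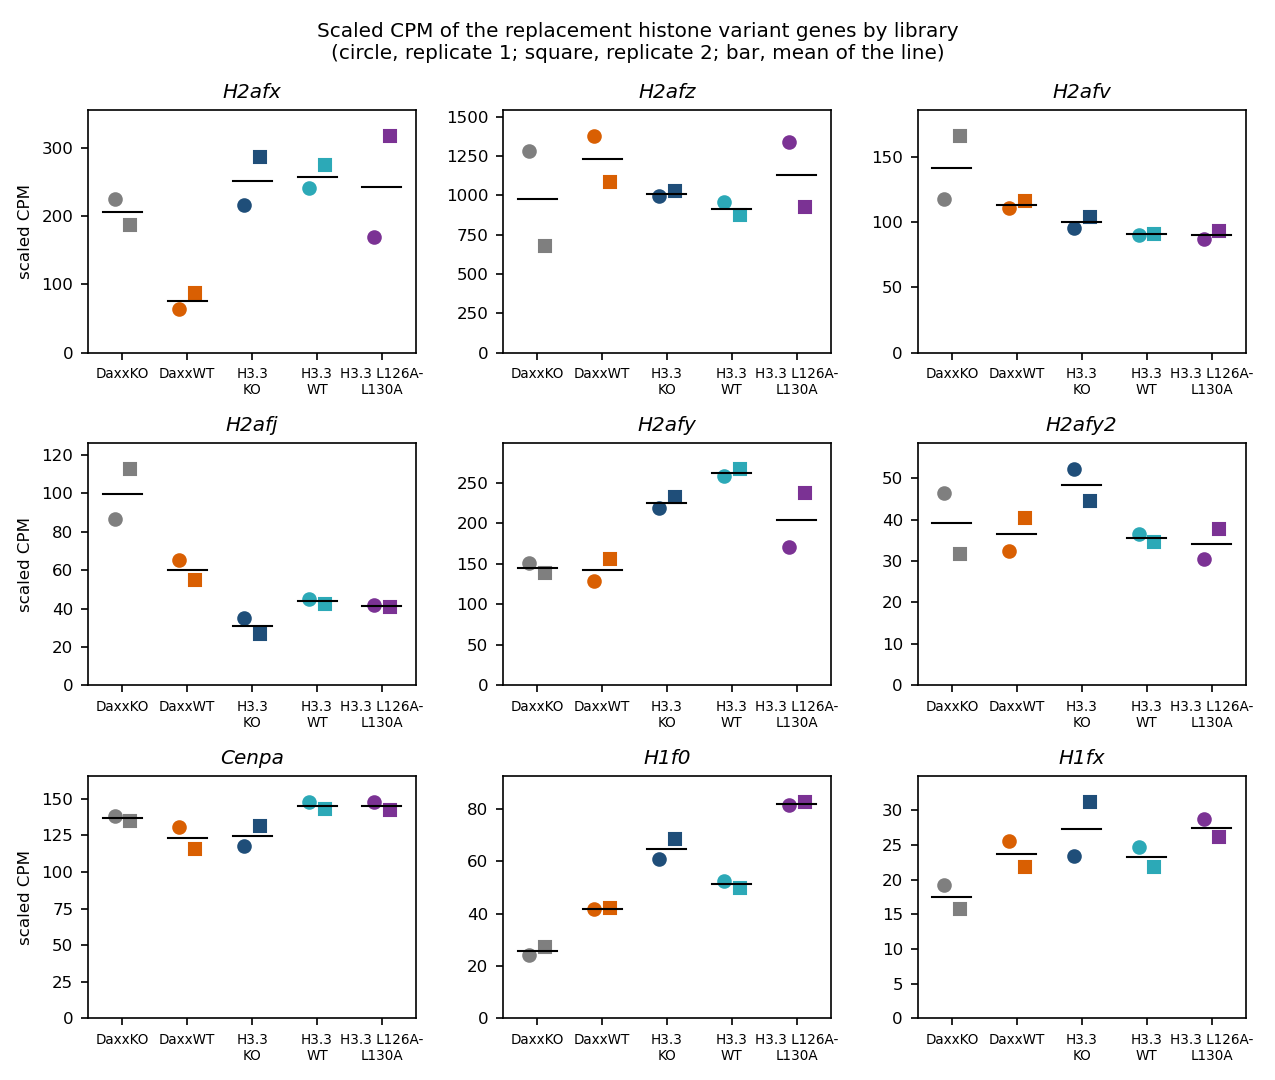
Scaled CPM (y axis, from 0) of the 9 detected genes in the 2 libraries of each line (circle, replicate 1; square, replicate 2; bar, mean of the line). *H2afx* is low only in DaxxWT, at 63.4 and 86.8 CPM, and the 5 lines are separate for *H1f0*, from 24.1 CPM in DaxxKO to 82.7 CPM in the mutant line.

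*H2afj*, *Cenpa* and *H1f0* had both DaxxWT libraries on one side of the DaxxKO libraries and both H3.3 WT libraries on the opposite side of the H3.3 KO libraries. Adding back DAXX gave negative fold changes for *H2afj* and *Cenpa* and a positive one for *H1f0*, and adding back H3.3 gave the opposite signs. Over all genes, the libraries did not overlap in 46.5% with DAXX and in 56.0% with wild-type H3.3. How many genes lay on opposite sides in the rescues was not counted, so the pattern is not read as particular to these 3. Tested as a difference between the rescues, none of the 3 passed.

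**Figure D4:**
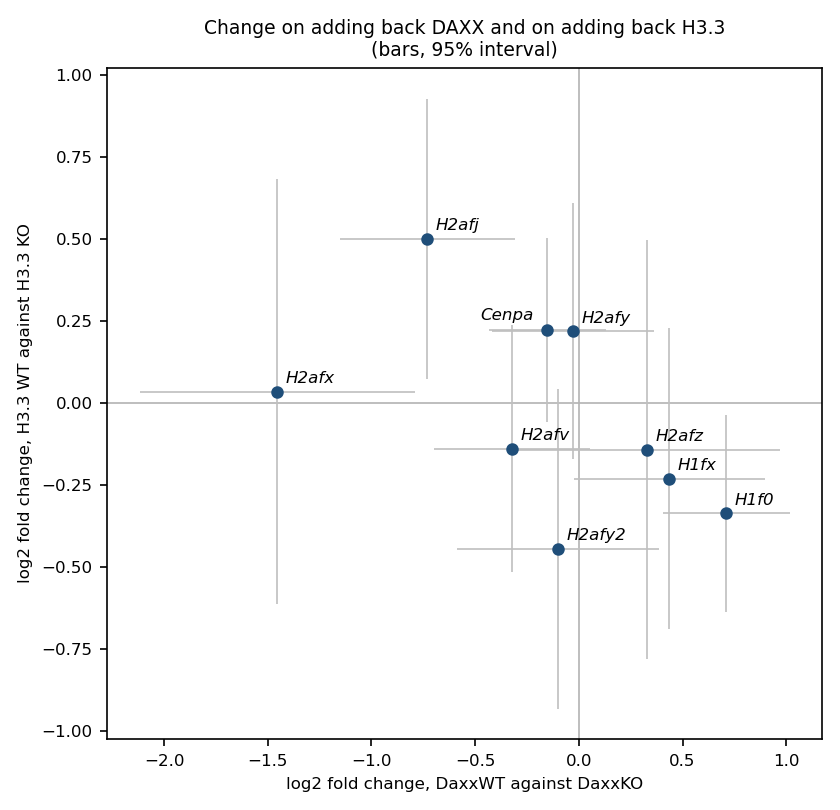
Log2 fold change in DaxxWT against DaxxKO (x axis) and in H3.3 WT against H3.3 KO (y axis) for the 9 tested genes, with 95% intervals as bars. *H2afj* (-0.73 and 0.50) and *H1f0* (0.71 and -0.34) lie in opposite quadrants, and *H2afx* (-1.45 and 0.03) lies far from 0 on the DAXX axis only.

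Between the parent lines the variants differed more. The 3 H3.3 lines against the 2 Daxx lines gave 5 of 9 genes past the threshold, 3 higher (*H2afx*, *H1f0*, *H2afy*) and 2 lower (*H2afj*, *H2afv*), where 39.9% of all genes passed. Of these, *H2afx* and *H2afj* were DE, where 12.5% of all genes were. The libraries did not overlap in 4 of 9 genes, against 22.8% of all genes. With 9 genes tested, these shares are given beside the background and are not read as particular to variant histones.

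*H2afj* was 2.02-fold lower in the H3.3 lines (-1.01 ± 0.12 on the log2 scale, adjusted p = 3.6e-04), with 26.6 to 45.0 CPM in 6 libraries against 54.8 to 113 CPM in 4. *H1f0* was 1.98-fold higher (0.98 ± 0.09, adjusted p = 1.1e-04), with 49.9 to 82.7 CPM against 24.1 to 42.2. *H2afy* was 1.60-fold higher (0.68 ± 0.11, adjusted p = 0.00198), with 171 to 267 CPM against 128 to 156. *H2afv* was 1.36-fold lower (-0.44 ± 0.11, adjusted p = 0.0106), with 86.8 to 104 CPM against 110 to 166. In these 4 genes the 2 sets of libraries did not overlap.

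The *H2afx* difference, 2.02-fold higher in the H3.3 lines (1.01 ± 0.19, adjusted p = 0.00341), rests on DaxxWT. The H3.3 libraries lay between 169 and 317 CPM and overlapped the DaxxKO libraries. In H3.3 KO against DaxxKO alone, a comparison added after the values were seen, *H2afx* differed by 0.29 ± 0.29 (interval -0.36 to 0.94, adjusted p = 0.494). In that comparison *H2afj* (-1.69 ± 0.19, adjusted p = 0.00132), *H1f0* (1.34 ± 0.14, adjusted p = 8.9e-04) and *H2afy* (0.64 ± 0.17, adjusted p = 0.0299) passed, 3 of 9 genes where 23.7% of all genes passed, and *H2afj* and *H1f0* were DE where 11.7% of all genes were. *H2afv* did not pass (-0.50 ± 0.17, adjusted p = 0.0567).

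*H1fx* (0.35 ± 0.13, adjusted p = 0.0643), *H2afz* (-0.11 ± 0.18), *H2afy2* (0.04 ± 0.14) and *Cenpa* (0.09 ± 0.08) did not pass between the H3.3 and Daxx lines. The interval for *Cenpa*, from -0.09 to 0.27 on the log2 scale, was the narrowest of the 9.

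**Figure D5:**
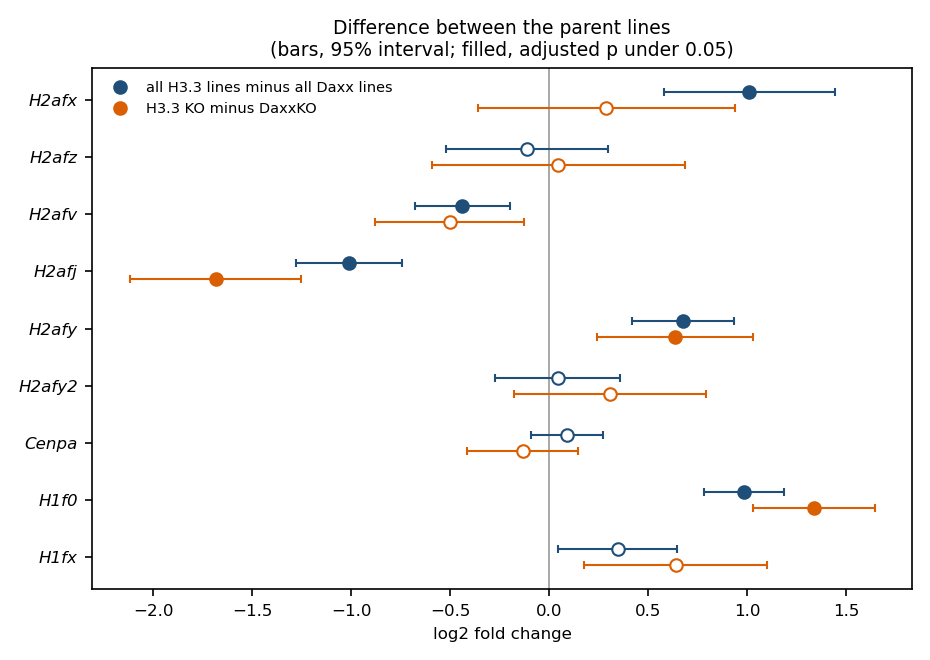
Log2 fold change (x axis) of the 9 tested genes between all H3.3 and all Daxx lines (blue) and between the KO lines alone (orange), with 95% intervals as bars and filled points at an adjusted p under 0.05. *H2afx* is filled only when the rescued lines are included (1.01 against 0.29), while *H2afj* (-1.01 and -1.69), *H1f0* (0.98 and 1.34) and *H2afy* (0.68 and 0.64) are filled in both.

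Some markers of other states differed between the parent lines as well. The 10 listed G2 and mitosis genes summed to 2178 to 2643 CPM in the Daxx lines and to 3116 to 3967 CPM in the H3.3 lines, and 6 of 10 passed as higher in the H3.3 lines, where 39.9% of all genes passed in either direction and 19.3% as higher. The 10 listed S phase genes summed to 3215 to 4221 CPM in the Daxx lines and, overlapping these, to 2517 to 3544 CPM in the H3.3 lines, with 1 higher and 4 lower, beside 20.6% of all genes lower. Their median log2 fold change was 0.04, so the lower sums do not describe the typical listed gene. The median was 0.40 for the G2 and mitosis genes and -0.01 over all genes tested. Fibroblast markers, at the Daxx line levels given above, summed to between 4.25 and 11.1 CPM in H3.3 lines. Of these, 3 of 5 were under 1 CPM in the mean over all libraries and 2 were tested, with a median of -0.57 on the log2 scale. *Thy1* was lower in H3.3 lines (-1.74 ± 0.25, adjusted p = 9.6e-04), while the other marker tested went the other way and did not pass. Markers of the primed epiblast or early differentiation summed to at most 27.8 CPM, with *Otx2* lower (-3.42 ± 0.29, adjusted p = 8.5e-05) and *Sox1* higher (1.19 ± 0.37, adjusted p = 0.0314). Primitive endoderm markers summed to at most 13.0 CPM and none of the 3 tested passed. The 3 two-cell-like genes measured, of 6 listed, did not pass here. In bulk samples, fewer cells of a type and less RNA per cell cannot be told apart, and the part of these markers in the variant histone differences was not tested.

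The enzymes and chaperones that handle the variants gave no gene past the threshold in any of the 4 comparisons within a parent line. This held in each of 4 lists: H2A.Z exchange (15 of 16 genes tested), H2A.X damage signalling (12 of 12), CENP-A loading and inner centromere (12 of 14), and FACT with general histone chaperones (13 of 13). Over all genes, 1.41% passed with DAXX, 0.250% with wild-type H3.3, 0.962% with the mutant and 0.530% for mutant against wild-type H3.3. The lack of calls is thus not read as particular to these lists. Between the H3.3 and Daxx lines, 1 gene was higher and 4 lower in the H2A.Z exchange list (median -0.05 on the log2 scale), 1 higher and 3 lower in the damage signalling list (-0.08), 2 higher and 4 lower in the CENP-A list (-0.07), and 3 higher and 1 lower in the chaperone list (0.26), beside a median of -0.01 over all genes tested. That is 36.5% of the 52 genes tested in the 4 lists, where 39.9% of all genes passed.

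Of these 52 genes, 3 were DE between the parent lines (5.77%, where 12.5% of all genes were), 2 of them in the CENP-A list. *Hjurp*, the chaperone that loads CENP-A, was lower in the H3.3 lines (-1.18 ± 0.10, adjusted p = 9.3e-05), where the 6 libraries lay between 110 and 162 CPM. It was at 369 and 402 CPM in DaxxKO and 241 and 242 CPM in DaxxWT, so that DAXX rescue gave -0.67 ± 0.16 (adjusted p = 0.0695), which did not pass. *Cenpc1*, which encodes the CENP-A-binding centromere protein CENP-C, was higher in the H3.3 lines (1.06 ± 0.13, adjusted p = 3.8e-04), with 59.0 to 69.9 CPM against 23.1 to 41.7. *Cenpa* itself differed by 0.09 ± 0.08 in the same comparison. In the damage signalling list, *Atm*, the kinase that phosphorylates H2A.X, was lower in the H3.3 lines (-1.17 ± 0.12, adjusted p = 2.2e-04), with 59.9 to 79.1 CPM against 124 to 178, and DAXX rescue gave 0.18 ± 0.19 (adjusted p = 0.603).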

How the data were processed

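PolyA RNA-Seq libraries of 5 mESC lines, 2 replicates each, were grouped by the line in their labels. The authors aligned the reads with Bowtie to the mm9 build and estimated expression with RSEM, per the submitters' processing notes and the study's methods; versions, annotation and strand are not given in the sources used here. The deposited values, named TPM, are expected counts per gene, not normalized by the authors for depth or length, and 61.4% to 67.6% of values per library were whole.

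Expected counts were rounded, scaled by median-of-ratios factors (0.936 to 1.04) and fitted with edgeR 4.0.16 under R 4.3.3, with all 10 libraries in 1 quasi-likelihood fit (common dispersion 0.0522, residual degrees of freedom 5). The test covered the 13201 genes that reached 1 CPM in 2 or more libraries, with Benjamini-Hochberg adjustment over all of them. The standard error is the size of the log2 fold change divided by the square root of F. The fit was tested on simulated data. p-values measure the spread between these replicates, pooled over lines, and limits on a count of 0 (3 counts) cover counting error only. Alternatives were DESeq2 1.42.0 and limma 3.58.1, the latter with a pseudocount of 1 or 0.1 added to CPM before the log2, beside other scaling, filters, a replicate block and leaving out each library.

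The variant histone genes, partner lists and cell markers were chosen with earlier results of these data known. All 10 variant genes are named, with the partner-list and marker genes that were DE in a comparison, the targeted genes, and the 5 genes most like the variant with the widest ratio of line means. Positions and exons come by symbol from GENCODE M21 (GRCm38), and promoter windows from RefSeq (GRCm38.p6); counts were made on mm9, of which no coordinates are printed.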

Additional observations from a re-analysis of the deposited data

Results flagged for a closer look

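In 3 variant histone genes both rescued libraries lay to one side of both KO libraries with DAXX and to the other side with wild-type H3.3. Over all genes, the libraries did not overlap in 46.5% with DAXX and in 56.0% with wild-type H3.3, and the share on opposite sides was not counted. The difference between the DAXX rescue and the wild-type H3.3 rescue, in log2 units, was -1.23 for *H2afj* (unadjusted p = 0.00121 and adjusted p = 0.160 by edgeR), 1.05 for *H1f0* (unadjusted p = 3.5e-04, adjusted p = 0.121) and -0.37 for *Cenpa* (unadjusted p = 0.0623, adjusted p = 0.381). None passed after adjustment over 13201 genes. With DESeq2 the adjusted p was 0.00640 for *H2afj* and 4.9e-04 for *H1f0*, where 1.98% of all genes were called with at least a 2-fold difference. The 3 genes were picked by this separation in the same libraries, so these p-values are not independent support for it. Of the 8 alternatives that left out no library, 1 passed for *H2afj*, 2 for *H1f0* and 0 for *Cenpa*. With 1 library left out, the *H2afj* difference lay between -1.45 and -1.03 on the log2 scale.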

How the results depend on the processing

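The 19 fold changes and differences between rescues with an unadjusted p under 0.05, or flagged above, gave 356 values under the alternatives; 317 kept their side of the threshold, 13 lost it, 26 gained it and 0 changed sign. In the difference between the rescues, DESeq2 called *H1f0*, *H2afj* and *H2afx*, and the block called *H1f0* (adjusted p = 0.0376). At the same threshold with at least a 2-fold difference, DESeq2 called 1.98% of all genes and the block 1.09%, against 0.0455% in the main fit. No variant gene was DE under any of the 20 alternatives in the wild-type H3.3 rescue, the mutant against H3.3 KO or the mutant against wild-type H3.3. In the DAXX rescue the count of DE variant genes was 0 as reported, where 1.08% of all genes were DE. It was 1 with DESeq2 (4.02% of all genes), with limma at a pseudocount of 1 (1.82%) or 0.1 (1.43%), and with no filter (1.33%). A mean of at least 5 CPM (1.41%) and no fold threshold (1.41%) also gave 1. The count also depended on which library was left out, with the *H2afx* log2 fold change between -1.70 and -1.24. In the H3.3 against Daxx lines the count of 2, beside 12.5% of all genes, became 0 with limma on log2(CPM + 1) (8.20%) and 1 on log2(CPM + 0.1) (12.2%). It was 5 without a fold threshold (39.9%). This count also depended on which library was left out, with log2 fold changes between 0.84 and 1.14 for *H2afx* and between -1.10 and -0.91 for *H2afj*. The gene called in the DAXX rescue was *H2afx* in these settings, except *H1f0* without a fold threshold. Between the parent lines, scaling by library size alone called *H1f0* and *H2afx*, beside 12.2% of all genes. The log2 fold changes of *H2afx* and *H2afj* between the parent lines, 1.01 and -1.01, lie at the 2-fold threshold. The cause of the other changes was not tested.

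With the replicate number as a block, the DAXX rescue gave 1 DE variant gene (*H2afx*, -1.49, adjusted p = 0.00992), where 4.70% of all genes were DE. The H3.3 against Daxx lines gave 1 (*H2afj*), where 13.7% of all genes were. The numbers were not taken to pair the libraries, since the deviations of same-numbered libraries correlated between lines at -0.04 to 0.57, over 0.1 in 7 of 10 pairs of lines; the other 3 pairs all hold the H3.3 KO line, and the rule asked for every pair. The block also moved *H1f0* in mutant against wild-type H3.3 (adjusted p = 0.0283), *H2afj* in the DAXX rescue (0.0352) and *H1fx* between the parent lines (0.0468) past the threshold. Over all genes, the count of DE genes was 143, 33, 104 and 68 in the 4 comparisons within a parent line, 621, 105, 461 and 234 with the block, and 1, 330, 29 and 18 with each comparison fitted alone. With 2 libraries per line, a gene that did not pass may still differ by as much as its interval allows.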
